A study of Mus musculus with 18 samples.

Results

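DNA methylation of mammary stem cells was compared between pregnant and virgin mice in 5 of the 18 reduced representation bisulfite libraries of the study. The members were chosen by their labels alone: the libraries of cells labelled mammary epithelial stem cells from pregnant females at day 10, day 16 and day 19 of pregnancy, and from virgin females at week 3 and week 9 of age. All mice were C57BL/6 females, no genetic change or drug is given for any group, and each stage gave 1 library. The cells were purified from digested mammary glands, and the sources used here give neither the markers used for that purification nor the number of animals behind a library. The restriction enzyme MspI, which recognises CCGG, fragments the DNA in this assay, and CpGs near the cuts are read, so it measures CpG-rich parts of the genome in preference to the rest. Progenitor and mature cells of the same stages, with 3 pregnant and 2 virgin libraries each, served to show where stem cells differed.

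The mammary epithelium expands into milk-forming alveoli during pregnancy, and its basal layer holds cells that can rebuild the gland when transplanted. Cytosine methylation at CpG dinucleotides is copied at each cell division. It is usually absent from CpG-dense gene starts, where transcription begins, and high in most CpG-poor sequence, while enhancers and other regulatory sequence far from gene starts often carry a middle level that differs between cell types.

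The stages of a state served as its replicates, so the spread between libraries includes differences between stages and may in part be technical. Ages are given for the virgin mice only, so age and pregnancy cannot be told apart. A change in the mix of cells and a change within cells likewise cannot be told apart in libraries of sorted populations. The pregnant stem libraries were also shallower, with 29219365, 16161563 and 20737470 reads in the analysed sequence at day 10, day 16 and day 19, against 34181907 and 43536388 reads at week 3 and week 9 in virgin mice. Reads may include copies of 1 molecule made by PCR. Methylation was summed in 77064 tiles of 1000 bp, each with at least 3 CpGs that had 5 or more reads in all 18 libraries. The median tile had 213, 121 and 153 reads in the pregnant stem libraries and 249 and 321 reads in the virgin stem libraries. The cell type label could hardly be checked from these data: of the marker genes listed for basal, luminal, stromal and blood cells, only Itgb1, Kit, Gata3, Krt18 and Vim had a measured gene start.

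Gene starts were placed on the mm9 coordinates of the data by matching the spacing of CpGs in RefSeq promoter sequences (build GRCm38.p6) to the spacing of the listed CpGs, which gave 9276 starts of 9053 genes. The 4 sequences that follow are shown because the results turn on them. Scn8a had a called tile across its start, Ephb3 had differences upstream of an unmethylated start, and Zfhx3 and Rara are starts downstream of called tiles with higher methylation. Each runs from 250 bases before to 50 bases after the start on the plus strand, and capitals mark the CpGs measured in all 18 libraries. They occupy chr15:100766452-100766751 (Scn8a, its second placed start), chr16:21204618-21204917 (Ephb3), chr8:111238294-111238593 (Zfhx3) and chr11:98798760-98799059 (Rara) on mm9.
Scn8a: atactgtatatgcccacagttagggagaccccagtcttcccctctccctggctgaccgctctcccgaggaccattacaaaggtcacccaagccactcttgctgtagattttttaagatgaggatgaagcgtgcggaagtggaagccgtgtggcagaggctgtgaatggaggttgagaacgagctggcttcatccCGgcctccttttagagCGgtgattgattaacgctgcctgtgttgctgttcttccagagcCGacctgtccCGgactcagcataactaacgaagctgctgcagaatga
Ephb3: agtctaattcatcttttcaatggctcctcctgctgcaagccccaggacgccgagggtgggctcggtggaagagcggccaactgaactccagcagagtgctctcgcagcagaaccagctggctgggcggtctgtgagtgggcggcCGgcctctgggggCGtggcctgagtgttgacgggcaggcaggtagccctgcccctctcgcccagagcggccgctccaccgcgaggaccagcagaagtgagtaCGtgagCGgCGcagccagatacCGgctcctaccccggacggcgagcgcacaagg
Zfhx3: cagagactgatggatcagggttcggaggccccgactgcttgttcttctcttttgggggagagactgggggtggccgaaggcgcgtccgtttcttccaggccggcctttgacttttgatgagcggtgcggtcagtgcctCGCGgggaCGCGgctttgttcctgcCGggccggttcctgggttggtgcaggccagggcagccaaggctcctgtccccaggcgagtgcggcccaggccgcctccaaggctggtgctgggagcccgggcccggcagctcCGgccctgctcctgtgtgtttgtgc
Rara: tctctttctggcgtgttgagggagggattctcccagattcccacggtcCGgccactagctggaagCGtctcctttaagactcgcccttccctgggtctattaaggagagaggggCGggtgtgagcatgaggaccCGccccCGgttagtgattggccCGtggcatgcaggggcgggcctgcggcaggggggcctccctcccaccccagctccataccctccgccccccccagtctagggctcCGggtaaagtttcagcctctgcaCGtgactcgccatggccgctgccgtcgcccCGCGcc

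Pregnant stem cells had less methylation than virgin stem cells where the level was intermediate. The tiles were put in 3 classes by their mean level in the 12 progenitor and mature libraries of all stages, retired breeders included. Stem cell values thus played no part in the classes. In the 16586 tiles of 20 to 80%, mean methylation was 56.2%, 54.4% and 54.5% at day 10, day 16 and day 19, against 58.8% and 59.8% at week 3 and week 9. Every pregnant library lay below both virgin libraries. The means were 55.0% ± 1.00 in pregnant (SD, n = 3) and 59.3% ± 0.714 in virgin stem cells (n = 2), a difference of -4.26 percentage points (two-sided exact permutation test, p = 0.1). With 3 libraries against 2 there are 10 splits, and 0.1 is the smallest p they can give.

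Unmethylated and methylated tiles differed less. In the 23951 tiles under 20%, a class that holds most CpG-dense gene starts, the pregnant stem libraries had 2.49%, 2.36% and 2.48% and the virgin stem libraries 3.16% and 3.32%. These groups did not overlap either, and the difference was -0.798 points (exact permutation p = 0.1). It depended on giving each tile the same weight: with reads pooled over the tiles the difference was 0.00372 points. In the 36527 tiles over 80% the pregnant libraries had 89.9%, 89.4% and 88.9% against 89.7% and 90.2% in virgin libraries, which overlapped (-0.520 points, exact permutation p = 0.4). Over all tiles the means were 55.0% in pregnant and 56.4% in virgin stem cells (-1.41 points, exact permutation p = 0.1). Adjustment over these 4 comparisons can only raise the p-values.

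**Figure D1:**
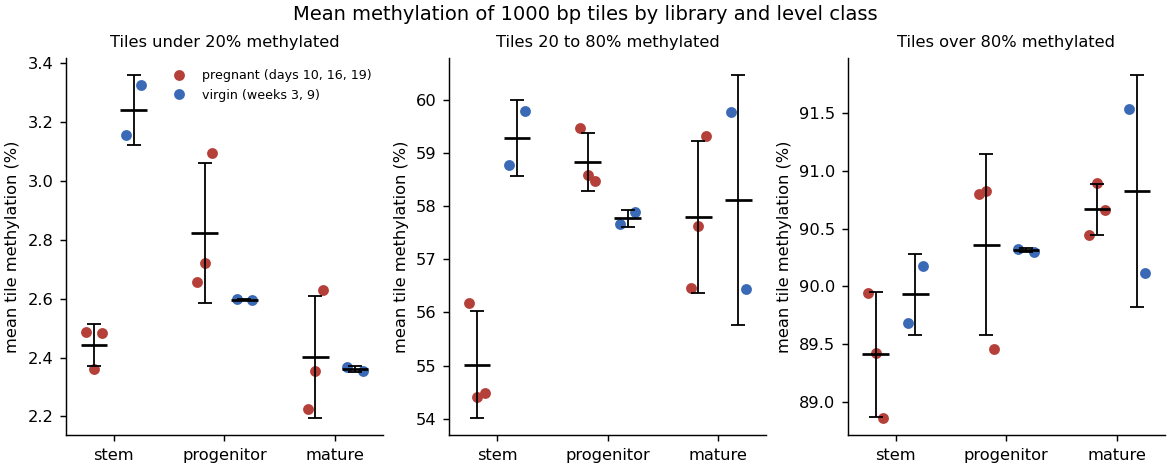
Mean methylation (percent, vertical axes) of the 3 classes of tiles in each pregnant and virgin library of stem, progenitor and mature cells, 1 point per library, with horizontal lines at group means and error bars of 1 SD. At 20 to 80% the pregnant stem libraries sit at 54.4 to 56.2%, below the virgin stem libraries at 58.8 and 59.8%, while pregnant progenitor libraries sit above virgin ones.

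Progenitor cells differed the other way in the middle class. Their pregnant libraries averaged 58.8% and their virgin libraries 57.8% (1.06 points, exact permutation p = 0.1), without overlap. Mature cells had 57.8% in pregnant and 58.1% in virgin libraries, which overlapped (-0.306 points, exact permutation p = 0.8). The plot of class means by library shows this contrast between stem and progenitor cells. The difference between the effects in stem and progenitor cells was -5.33 points. The cell types share their stages, and with stages permuted for both together the exact permutation p was 0.1, the smallest that these 10 splits can give. With the libraries of each cell type split on their own, 100 splits in all, exact permutation p was 0.01, or 0.03 adjusted by Benjamini-Hochberg over 6 such comparisons. In the class under 20% the difference between the effects was -1.02 points, with the same p-values. There the progenitor mean rose by 0.227 points (exact permutation p = 0.3), but the median tile differed by -0.0407 points in progenitor and -0.102 points in stem cells. Against mature cells the stem effect differed by -3.96 points in the middle class (exact permutation p = 0.3 with stages permuted together and 0.14 with separate splits, adjusted p = 0.21), so a difference from mature cells was not shown. Virgin mature libraries lay far apart in that class, at 59.8% for week 3 and 56.4% for week 9.

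The differences were uneven over the tiles. The median middle-class tile differed by -2.91 points, and 62.8% of these tiles had a negative difference. In stem cells 11.2% of middle-class tiles were lower by at least 20 points in pregnant libraries and 3.04% were higher by as much. The shares in progenitor cells were 0.151% lower and 0.307% higher, and in mature cells 0.603% lower and 0.247% higher. Of all tiles in stem cells 2285 (2.97%) were lower and 654 (0.849%) higher by 20 points, and 2212 (2.87%) and 614 (0.797%) were so with no overlap between pregnant and virgin libraries. Of all tiles in progenitor cells 0.0363% were lower and 0.0714% higher by 20 points, and in mature cells 0.13% and 0.0597%. The part of depth in these shares was not tested. The pregnant progenitor libraries of day 16 and day 19, with 21066553 and 29321108 reads in all, were shallower than the stem libraries of these days, with 27040948 and 37710041 reads. After the 13 libraries with more reads were thinned to 27040948 reads, the depth of the day 16 stem library, the mean middle-class difference in stem cells was -4.24 points. Random thinning keeps a mean level on average, so this value cannot show the part of depth, and the shares were not taken after thinning.

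**Figure D2:**
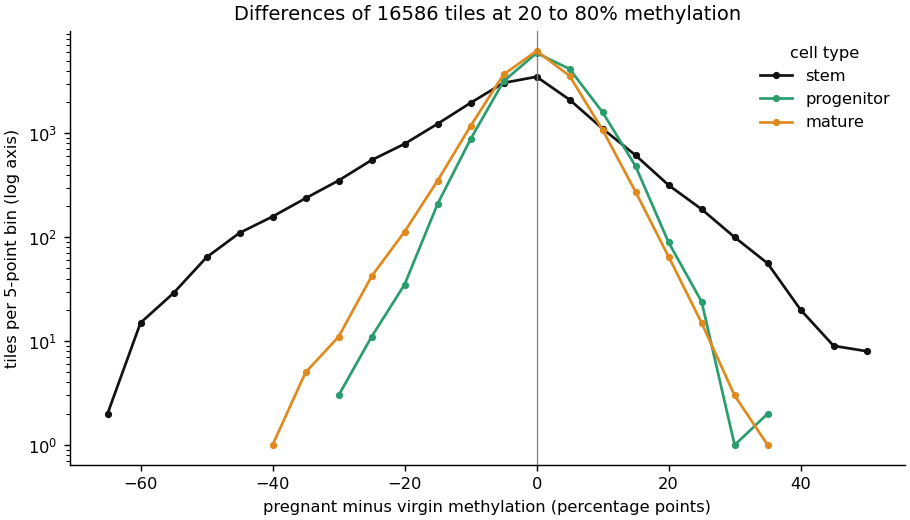
Distribution of the pregnant minus virgin difference (percentage points, horizontal axis) over middle-class tiles in stem, progenitor and mature cells, as the number of tiles per 5-point bin on a log vertical axis. Stem cells (black) have longer tails on both sides, and the lower tail is the heavier one, with 11.2% of tiles at -20 points or less against 3.04% at 20 points or more.

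Single tiles were tested by a quasi-binomial logistic regression on methylated and total reads, with the spread estimated from all 18 libraries. A tile was called at a Benjamini-Hochberg adjusted p under 0.05 and a difference of at least 10 points. In pregnant stem cells 122 tiles (0.158%) were called, of which 94 (0.122%) had less and 28 (0.0363%) had more methylation than in virgin stem cells. The called falls had a median of -29.8 points and ran from -60.6 to -10.1 points, and the called rises had a median of 25.9 points and ran from 10.7 to 43.9 points. Falls of at least 40 points numbered 22, against 1 such rise. The pregnant and virgin stem libraries did not overlap at any of the 122, nor at 26.1% of all tiles, of which 18% were lower and 8.06% higher. An unadjusted p under 0.05 was found at 10961 tiles (14.2%), 7789 of them lower (10.1%) and 3172 higher (4.12%). The calls lay close to the threshold, with a smallest adjusted p of 0.0295, and they ended under several settings: 0 tiles were called by limma, on the stem libraries alone, in tiles of 500 bp, after thinning, and without day 10 or day 16. Without week 3 there were 693 calls, without day 19 there were 46 and without week 9 there was 1. With the prior spread taken from tiles whose replicates differ, an alternative chosen after seeing the data, there were 381. The named tiles are therefore given with their values in each library, and none of the 28 turned its direction in the settings where it was measured. For most settings this was fixed in advance. Fits on the same reads reuse the same difference, and groups that do not overlap cannot reverse when 1 library is left out. With 10 reads per CpG 13 of the 28 tiles were measured, and tiles of 500 bp have other boundaries and were not matched to them.

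In the 94 falling tiles mean methylation was 26.8%, 25.1% and 29.2% at day 10, day 16 and day 19, against 55.0% and 60.2% at week 3 and week 9. Over the same tiles the progenitor cells averaged 47.1% in pregnant and 44.4% in virgin libraries, and the mature cells 44.0% and 41.0%. In the 28 rising tiles the stem libraries had 69.5%, 70.6% and 67.4% in pregnancy, against 46.0% and 38.6% in virgin mice. Progenitor cells averaged 56.1% in pregnant and 56.6% in virgin libraries there, and mature cells 56.0% and 59.7%. At both sets of tiles the levels in progenitor and mature cells of either state thus lay between those of pregnant and virgin stem cells. The tiles were chosen for large differences between the stem states, so the stem levels, and the place of the other cells between them, are a description. Progenitor and mature cells had 0 called tiles each, with 2918 (3.79%) and 3939 (5.11%) at an unadjusted p under 0.05. A difference of the stem effect from that of progenitor cells was called at 0 tiles (smallest adjusted p = 0.183, with 8107 tiles or 10.5% at an unadjusted p under 0.05), and from that of mature cells at 0 tiles (smallest adjusted p = 0.0788, with 8862 tiles or 11.5%).

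By CpG density, the largest mean differences were in CpG-poor tiles. Density was taken as the number of CpGs listed in the tile in any library. Within the middle class, tiles with 3 to 5 CpGs averaged 57.1% in pregnant and 61.6% in virgin stem cells (-4.56 points), and tiles with 6 to 9 CpGs 54.3% and 58.7% (-4.42 points). The difference was -3.27 points in tiles with 10 to 19 CpGs, and in all 3 classes the pregnant libraries lay below the virgin ones (exact permutation p = 0.1 in each). With 20 to 49 CpGs the levels were 39.4% in pregnant and 39.5% in virgin stem cells (-0.157 points, exact permutation p = 1), and the 48 tiles with 50 or more CpGs differed by -0.965 points (exact permutation p = 0.4). This last value was 0.143 points when 10 reads per CpG were required. Called tiles numbered 73 of 31254 (0.234%) with 3 to 5 CpGs, 35 of 17870 (0.196%) with 6 to 9, 11 of 14519 (0.0758%) with 10 to 19, 3 of 11034 (0.0272%) with 20 to 49 and 0 of 2387 with 50 or more.

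By distance from the nearest placed gene start, middle-class tiles within 1 kb averaged 37.8% in pregnant and 40.4% in virgin stem cells (-2.59 points, exact permutation p = 0.2), and their libraries overlapped. From 1 to 5 kb the difference was -3.67 points, from 5 to 20 kb -4.32 points, from 20 to 100 kb -4.76 points and beyond 100 kb -3.99 points. In each of these 4 classes every pregnant library was below both virgin libraries (exact permutation p = 0.1). Upstream and downstream tiles at 1 to 20 kb had like differences, of -4.40 and -3.94 points. Called tiles made up 0.0274% of all tiles within 1 kb, 0.203% from 1 to 5 kb and 0.200% from 5 to 20 kb. The share was 0.298% from 20 to 100 kb, 0.101% beyond 100 kb and 0.158% over all tiles. Starts that could not be placed are missing from the measure, so a true distance may be shorter than the one given. The called tiles had a median distance of 59.1 kb, where all tiles had 66.0 kb, and 6 of 119 of them (5.04%) overlapped the 1 kb on either side of a placed start, as did 11999 of 74703 tiles in all (16.1%).

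The X chromosome, of which female cells keep 1 copy inactive and methylated at many gene starts, showed a smaller shift. Its 975 middle-class tiles averaged 47.5% in pregnant and 50.02% in virgin stem cells (-2.54 points), against 55.5% and 59.8% on the autosomes (-4.37 points). It held 1 of the called tiles in 3386 tested (0.0295%), while the autosomes held 121 in 73632 (0.164%). Every autosome had between 1 and 12 called tiles, and the median middle-class difference was negative on each, from -3.59 points on chromosome 8 to -2.39 points on chromosome 3. The difference between the X chromosome and the autosomes itself was not tested.

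**Figure D3:**
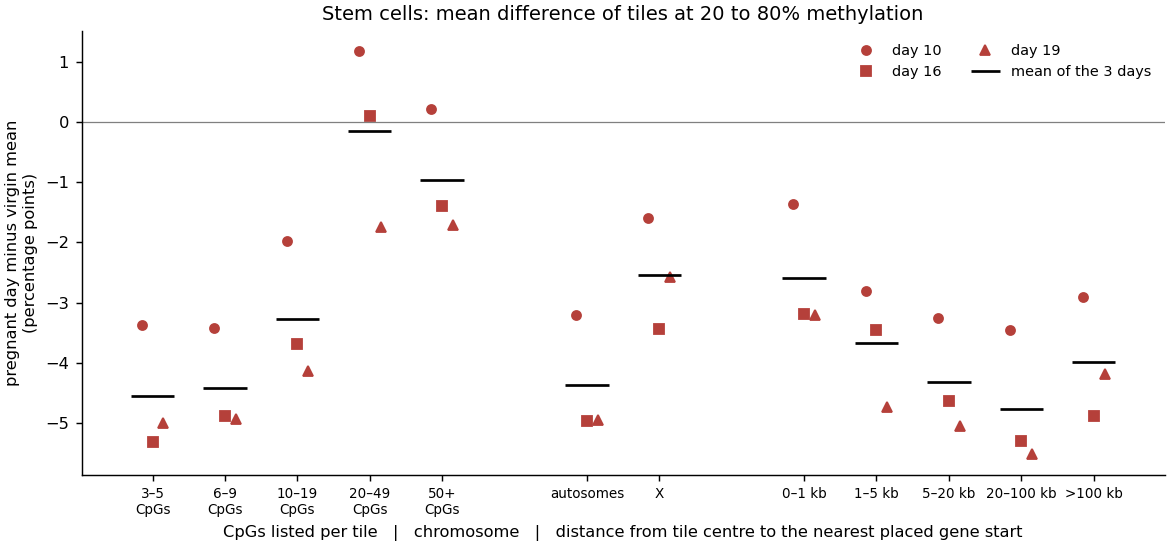
Pregnant day minus virgin mean methylation of middle-class stem cell tiles (percentage points) by number of CpGs listed in the tile, chromosome, and distance from the nearest placed gene start, with 1 symbol per pregnancy day and a line at their mean. Differences are near -4.5 points in tiles with 3 to 9 CpGs and -0.157 points with 20 to 49 CpGs, and smaller within 1 kb of a start and on the X chromosome.

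Differences around called tiles were small next to those in the tiles, which were selected for large differences. Called tiles were left out of the neighbours, so this contrast follows in part from the selection. Tiles 1 to 5 kb from a falling tile numbered 47 and had a median difference of -0.513 points. The 11 of them in the middle class averaged 61.3% in pregnant and 63.4% in virgin stem cells, with a median difference of -0.409 points. Around the rising tiles the 27 neighbours at this distance had a median of -0.104 points. The 8 of them in the middle class averaged 41.0% in pregnant and 36.8% in virgin stem cells, with a median difference of 3.53 points. Inside the called tiles 541 of 571 CpGs (94.7%) had the direction of their tile, as had 97.6% of the CpGs in all tiles with a difference of 20 points or more. The tile values are sums over these CpGs, so this is a description. The assay reads short stretches near MspI sites, so the measured CpGs of a tile often lie on the same reads. Only 1 pair of called tiles with the same direction lay within 10 kb of each other. That pair, chr13:55584001-55586000, lies 4.94 and 3.94 kb downstream of the placed start of Dbn1. This gene encodes the actin-binding protein drebrin. Its first tile had 20.2%, 8.82% and 16.4% in pregnant and 43.4% and 56.2% in virgin stem cells (-34.6 points). The second had 9.45%, 0% and 3.74% in pregnant and 40% and 57.6% in virgin stem cells (-44.4 points). In progenitor cells these tiles had 31.8% and 32.0% in pregnant libraries and 33.1% and 38.0% in virgin libraries.

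The deepest called falls lay away from placed gene starts, and most had few CpGs. Genes without a placed start are given as lying in the interval between the placed starts on either side of the tile, from the RefSeq gene order. Not every gene of an interval is named. The deepest called fall was at chr14:75106001-75107000, 25.6 kb upstream of the start of the esterase gene Esd, in an interval that holds Htr2a, which encodes a serotonin receptor. Its 3 CpGs, read 128 to 349 times per library, had 37.1%, 23.7% and 22.7% in pregnant against 81.2% and 95.7% in virgin stem cells. Pregnant libraries were far below both virgin libraries and averaged 27.8% ± 8.04 (SD, n = 3) and 88.4% ± 10.3 (n = 2), a difference of -60.6 points (adjusted p = 0.0443). The 12 progenitor and mature libraries had 59.4 to 86.6%. The tile at chr10:70512001-70513000 lay in an interval that holds Bicc1. The nearest placed start was that of Tfam, which encodes a transcription factor of mitochondrial DNA, with the tile 188 kb downstream. Its 6 CpGs had 18.2%, 16.8% and 11.0% in pregnant against 67.0% and 81.4% in virgin stem cells (-58.9 points, adjusted p = 0.0429). All 6 CpGs were lower without overlap, with differences of -75.3 to -39.3 points.

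At chr17:75432001-75433000, 27.6 kb downstream of the start of Ltbp1, which encodes a protein that holds latent TGF-beta in the matrix, pregnant libraries had 15.1%, 8.99% and 12.2% and virgin libraries 68.6% and 70% (-57.2 points, adjusted p = 0.0424). The libraries of each state lay close together here, and far from those of the other state. The tile at chr5:97433001-97434000, 6.79 kb downstream of the start of Bmp2k, a kinase gene, had 16.0%, 4.92% and 29.0% in pregnant against 65.1% and 76.1% in virgin stem cells (-53.9 points, adjusted p = 0.0335). In an interval that holds Fst, the gene of the activin inhibitor follistatin, chr13:115259001-115260000 had 19.0%, 21.1% and 23.5% in pregnant and 65.7% and 81.2% in virgin stem cells (-52.2 points). The other named falls lay at chr1:34865001-34866000 (-55.1 points), chr2:173251001-173252000 (-51.3 points), chr11:119867001-119868000, 35.6 kb downstream of the start of Aatk (-50.5 points), on chromosome 18 (-48.8 points) and at chr19:58206001-58207000, 323 kb from the start of the GDNF receptor gene Gfra1 (-47.4 points). The interval of the tile near Aatk also holds Baiap2. All 10 named falls had at least 3 CpGs, every one of which was lower without overlap between the groups. The tiles were named for large differences without overlap, and their values are sums over these CpGs. The CpG counts here and at the other named tiles are therefore a description.

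The largest called rise was at chr9:47279001-47280000, in an interval that holds Cadm1, which encodes a cell adhesion molecule. Its 3 CpGs had 79.2%, 70.5% and 78.9% in pregnant and 35.0% and 29.6% in virgin stem cells (43.9 points, adjusted p = 0.0443). Progenitor cells had 44.7% in pregnant and 57.3% in virgin libraries at this tile, the opposite direction, but the difference between the effects was not called (adjusted p = 0.183). A tile at chr11:98787001-98788000 lay in an interval that holds Wipf2 and Cdc6. The tile was 11.5 kb before the start printed above of Rara, the gene of retinoic acid receptor alpha. Its 5 CpGs had 52.0%, 63.1% and 50.3% in pregnant and 17.1% and 13.7% in virgin stem cells (39.8 points, adjusted p = 0.0463). All 5 were higher without overlap, by 25.9 to 47.4 points, while the 12 progenitor and mature libraries had 14.0 to 45.7% over the tile. At the Rara start itself, 8 of the 10 measured CpGs were at 0% in all 5 stem libraries, and the other two reached 11.1% and 2.13% in 1 library, at day 16.

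In the interval that holds the Hoxb9 to Hoxb3 genes, chr11:96172001-96173000, had 81.9%, 82.5% and 81.4% in pregnant and 47.6% and 42.4% in virgin stem cells (36.9 points). The tile with the most CpGs among the named rises, chr13:53561001-53562000, lay in an interval that holds Msx2, which encodes a homeodomain protein of mammary gland development. Its 10 CpGs, read 364 to 891 times per library, had 73.8%, 69.4% and 63.7% in pregnant and 45.4% and 32.1% in virgin stem cells (30.2 points, adjusted p = 0.0463), and all 10 were higher. Progenitor and mature cells stood at 63.8% and 68.3% in pregnant and 65.5% and 68.5% in virgin libraries, so the virgin stem libraries were the low ones. At chr6:51332001-51333000, in an interval with the transcription factor gene Nfe2l3, 7 CpGs had 75.9%, 80.7% and 72.8% in pregnant and 55.2% and 38.4% in virgin stem cells (29.7 points), and all 7 were higher without overlap. The tile at chr14:63524001-63525000, 67.97 kb downstream of the start of Wdfy2, had 91.0%, 88.1% and 88.5% in pregnant and 58.3% and 42.1% in virgin stem cells (39.0 points). Further rises lay at chr15:76929001-76930000 (35.8 points), on chromosome 18 (33.8 points), at chr15:25562001-25563000, 10.2 kb downstream of the start of Myo10, a myosin of filopodia (31.7 points), and at chr7:150898001-150899000, 27.8 kb from the start of Osbpl5 (28.7 points).

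**Figure D4:**
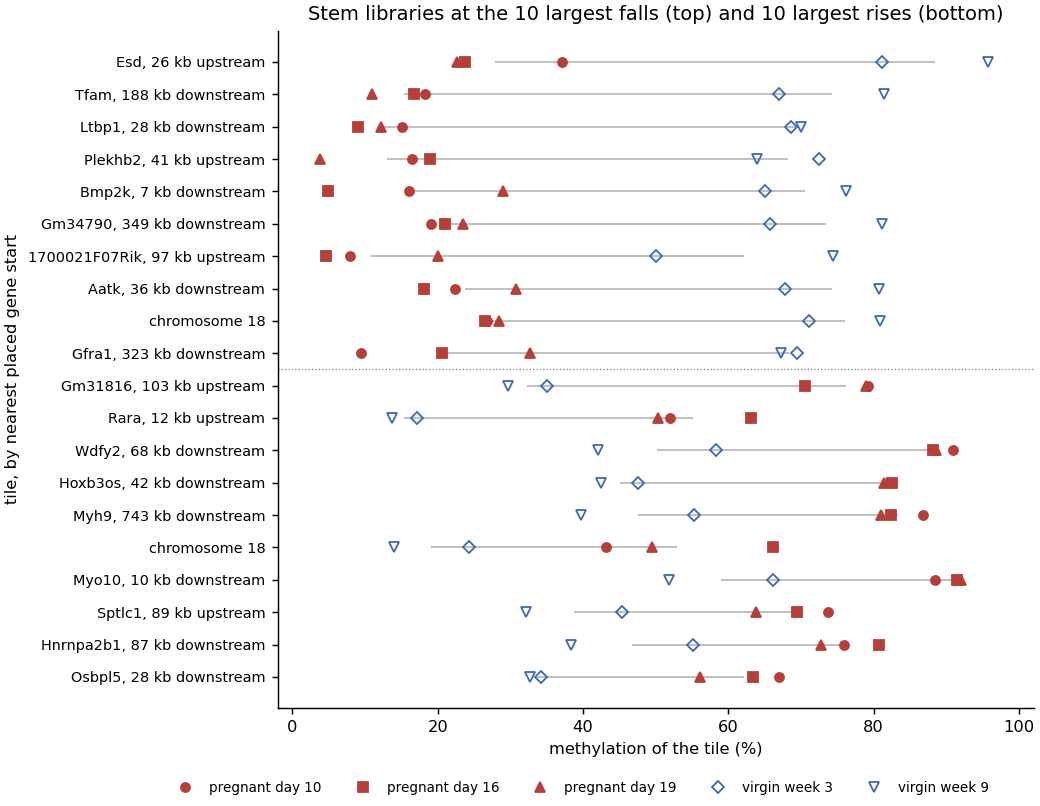
Methylation (percent, horizontal axis) of the 10 largest called falls (upper rows) and 10 largest called rises (lower rows) in each stem library, 1 symbol per library, with a grey line joining the pregnant and virgin means and each tile named by its nearest placed gene start or, for those on chromosome 18, by the chromosome. At every tile drawn the pregnant and virgin symbols do not overlap, as the naming rule requires, and the 3 pregnant symbols lie on the left in the falls and on the right in the rises.

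Among the 6 called tiles at placed gene starts, 3 had less and 3 had more methylation in pregnant stem cells. At Scn8a, a voltage-gated sodium channel gene, chr15:100766001-100767000 spans the start shown above. Its levels were 26.6%, 21.2% and 27.9% in pregnant and 45.6% and 53.8% in virgin stem cells (-24.5 points, adjusted p = 0.0443). The 4 CpGs in capitals in the Scn8a sequence lie at bases 195, 211, 254 and 264 and differed by -18.3, -25.2, -20.6 and -24.3 points. They lie on both sides of the start. Progenitor cells had 32.7% in pregnant and 24.9% in virgin libraries. A tile 0.63 kb downstream of the Fam169b start, chr7:75421001-75422000, had 2.86%, 2.93% and 7.80% in pregnant and 29.3% and 18.6% in virgin stem cells (-19.4 points). At the predicted gene Gm35290, chr17:28144001-28145000 had 4.14%, 3.39% and 2.23% in pregnant and 13.7% and 22.1% in virgin stem cells (-14.6 points).

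The 3 rises at starts included a tile beside Slc5a5, the sodium-iodide symporter that carries iodide into milk in the lactating gland. At chr8:73415001-73416000, 1.16 kb downstream of its start, methylation was 18.2%, 12.5% and 8.87% in pregnant and 1.57% and 0.836% in virgin stem cells (12.0 points). All pregnant libraries were higher than both virgin libraries, with a wide spread among themselves, and the 12 progenitor and mature libraries had 0 to 6.62%. The adjusted p of 0.04995 was the largest of all called tiles. Of the 5 CpGs in this tile 2 were higher without overlap, and 2 others differed by only 0.816 and 4.37 points. In an interval that holds Slc2a1, the gene of the glucose transporter GLUT1, chr4:118782001-118783000 had 29.2%, 32.9% and 35.5% in pregnant and 9.15% and 2.80% in virgin stem cells (26.6 points). That tile lies 1.15 kb upstream of the start of Gm52706, the placed start it was matched to. Upstream of Zfhx3, a homeodomain transcription factor gene, chr8:111237001-111238000 had 82.2%, 79.9% and 80.7% in pregnant and 55.7% and 55.5% in virgin stem cells (25.3 points, adjusted p = 0.0424). This tile ends before the Zfhx3 sequence printed above, in which 4 of the 6 measured CpGs were at 0% in every stem library and the other two were at 5.26% or less.

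Gene starts were also taken as whole windows of 1 kb on either side. Of 8843 windows of 8648 genes, with a median of 18 CpGs, 0 were called by the quasi-binomial fit, 989 (11.2%) had an unadjusted p under 0.05, and limma called 2, Gm34996 and Gm35290. The lower windows numbered 824 (9.32%) and the higher ones 165 (1.87%) at that unadjusted p, and the smallest adjusted p was 0.0996. In the 8295 windows under 20%, pregnant stem libraries had 1.21%, 1.17% and 1.01% and virgin stem libraries 1.24% and 1.42% (-0.200 points, exact permutation p = 0.1). In the 439 windows at 20 to 80% the pregnant libraries had 36.3%, 35.1% and 34.7% and the virgin libraries 36.6% and 38.5% (-2.17 points, exact permutation p = 0.2). The median window differed by -0.0800 points, while 70 windows were lower and 35 higher by at least 10 points. Gm34996, the window called by limma and picked out after its values were seen, had 28.9%, 34.0% and 38.9% in pregnant and 72.2% and 76.6% in virgin stem cells (-40.4 points, adjusted p = 0.233 in the quasi-binomial fit). Among large differences picked out in the same way, Lep, the gene of the fat cell hormone leptin, had 38.6%, 16.8% and 17.6% in pregnant and 58.9% and 64.6% in virgin stem cells (-37.4 points, adjusted p = 0.346), and Stra6, the gene of a vitamin A receptor, 64.4%, 48.4% and 55.4% in pregnant and 30.5% and 18.8% in virgin stem cells (31.4 points, adjusted p = 0.352). The groups did not overlap at these 3 windows, which were picked from windows without overlap. Of all windows 18.2% were lower and 3.62% higher without overlap.

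The 10 windows with the smallest p were all lower in pregnant stem cells and none was called. Besides Scn8a and Gm35290, the largest difference was at Ephb3, a receptor for ephrin-B ligands, with 4.90%, 3.29% and 6.58% in pregnant and 11.7% and 16.1% in virgin stem cells (-8.98 points, adjusted p = 0.0996). It lay in 7 of the 30 CpGs, at positions -952 to -623 from the start, which differed by -64.9 to -11.9 points. All 6 CpGs in capitals in the Ephb3 sequence were at 0% in every stem library. Cdk10, the gene of a cyclin-dependent kinase, had 0.409%, 0.712% and 0% in pregnant and 6.26% and 3.61% in virgin stem cells (-4.56 points), but 0.216 points when 10 reads per CpG were required. Anapc7, a subunit of the anaphase-promoting complex, had 0.186%, 0% and 0.588% in pregnant and 4.28% and 3.81% in virgin stem cells (-3.79 points). The others were Gm38882 (-3.01 points), Scube3 (-1.51 points), Pik3r2 and 2010320M18Rik, whose starts face away from each other and share 1 window of CpGs (-1.08 points), and Adamtsl3 (-0.690 points). Few CpGs in these windows differed by at least 10 points without overlap. They numbered 2 of 13 at Cdk10, 1 of 9 at Anapc7 (at position 984), 2 of 26 at Gm38882 and 3 of 48 at Scube3. Pik3r2 had 1 of 21 and Adamtsl3 0 of 27. Without week 3, 6 windows were called, Scn8a, Ephb3 and Gm35290 among them.

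No window of any gene list passed the test, and the counts of list members at an unadjusted p under 0.05 stand beside 9.32% lower and 1.87% higher of all windows. Lists of signalling and mammary genes mostly lay at unmethylated starts. Of 45 Wnt pathway genes 24 had a measured start, in 26 windows, of which 2 were lower and 1 higher at an unadjusted p under 0.05. Wnt10b, a Wnt ligand active early in mammary development, had 10.9%, 6.43% and 8.29% in pregnant and 2.70% and 3.38% in virgin stem cells (5.51 points, adjusted p = 0.233), and Wnt5b 12.3%, 10.4% and 6.38% in pregnant and 14.6% and 18.4% in virgin stem cells (-6.81 points, adjusted p = 0.536). Tcf7, a DNA-binding partner of beta-catenin, had 1.13%, 0.466% and 1.25% in pregnant and 2.49% and 4.58% in virgin stem cells (-2.59 points, adjusted p = 0.160). The groups did not overlap at these 3 genes, yet 18.2% of all windows were lower and 3.62% higher without overlap. At Wnt10b 1 of 18 CpGs, at position 921, differed by at least 10 points without overlap, and at Tcf7 1 of 33. The Wnt5b values are from 1 of its measured starts, where 1 of 5 CpGs did so. Another Wnt5b start, with 21 CpGs measured, also had 1 such CpG.

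Of 24 Notch pathway genes 15 had a measured start, in 16 windows with a median of -0.302 points. Of these windows 5 were lower and 0 higher at an unadjusted p under 0.05 (9.32% and 1.87% of all windows). The ligand gene Jag2 had 1.56%, 0.521% and 2.28% in pregnant and 2.94% and 4.06% in virgin stem cells (-2.05 points). Lfng, whose product adds sugar to Notch, differed by -2.62 points in the 1 kb window but by 0.0428 points within 500 bp. At Jag2 2 of 33 CpGs and at Lfng 2 of 20 differed by at least 10 points without overlap. Among 18 Polycomb genes 9 were measured, in 10 windows, of which 3 were lower and 0 higher. Bmi1, known for self-renewal of stem cells, had 0%, 0.145% and 0.113% in pregnant and 0.775% and 1.92% in virgin stem cells (-1.26 points). Of its 27 CpGs 2 differed by at least 10 points without overlap. The window difference was 0.00575 points with 10 reads per CpG. The TGF-beta and BMP list had 3 lower and 0 higher of 22 genes measured, the Hedgehog list 0 of 8 in either direction, and the list of cell cycle inhibitors and regulators 0 of 8.

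Basal and stem cell regulators had 11 genes measured of 30, with 3 lower and 0 higher at an unadjusted p under 0.05, where 9.32% of all windows were lower and 1.87% higher. The largest difference was at Myl9, which encodes a myosin light chain of contractile cells, with 7.71%, 4.26% and 5.04% in pregnant and 14.0% and 20.9% in virgin stem cells (-11.8 points, adjusted p = 0.233). Oxtr, the oxytocin receptor gene, had 0.666%, 1.73% and 4.66% in pregnant and 5.59% and 6.63% in virgin stem cells (-3.76 points, adjusted p = 0.511). At Myl9 3 of 12 CpGs and at Oxtr 1 of 19, at position 772, differed by at least 10 points without overlap. The milk protein and lactation list had 5 of 20 genes measured and 0 in either direction, with differences of -0.307 to 0.00623 points. Of the prolactin and Stat5 list 12 of 18 were measured, with 3 lower and 0 higher. One of these, the phosphatase gene Ptpn11, had 0.588%, 0.828% and 1.26% in pregnant and 2.19% and 2.40% in virgin stem cells (-1.40 points). Of the 22 CpGs at Ptpn11 1 differed by at least 10 points without overlap.

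Hox genes mostly had positive differences, 9 of 11 windows, with 2 below 0, where 62.2% of all windows were below 0. Of the 39 Hox genes 11 were measured, with 0 lower and 2 higher at an unadjusted p under 0.05, against 9.32% and 1.87% of all windows. Hoxd10 had 10.3%, 8.98% and 8.13% in pregnant and 3.68% and 6.53% in virgin stem cells (4.04 points, adjusted p = 0.237). Hoxa11 had 5.63%, 6.33% and 5.08% in pregnant and 2.39% and 2.11% in virgin stem cells (3.43 points, adjusted p = 0.237). At Hoxd10 2 of 20 CpGs and at Hoxa11 3 of 39 differed by at least 10 points without overlap. Imprinted genes, expressed from 1 parental copy, had 11 of 36 measured, with 4 lower and 1 higher at that p. Zrsr1, which is imprinted through its own start, had 34.7%, 36.4% and 38.9% in pregnant and 43.6% and 43.3% in virgin stem cells (-6.77 points, adjusted p = 0.376). Clustered protocadherins had 0 of 48 genes measured. In the list of hormone receptors and luminal regulators 1 of 11 measured genes, Rarg, the gene of retinoic acid receptor gamma, was lower at an unadjusted p under 0.05, with 0%, 0% and 0.251% in pregnant and 0.567% and 1.54% in virgin stem cells (-0.967 points). The DNA methylation machinery, with 9 genes measured in 10 windows, had 0 windows lower and 1 higher. The 5 marker genes with a measured start, named in the opening, were all little methylated, and their windows differed by -0.578 to 0.300 points.

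The 3 days of pregnancy lay on the same side of the virgin level. In middle-class tiles the mean difference from the virgin stem libraries was -3.11 points at day 10, -4.88 points at day 16 and -4.80 points at day 19. Shares of middle-class tiles lower by 20 points were 11.8%, 16.0% and 11.7% at these days, and 5.14%, 5.40% and 3.02% were higher by as much. Day 16 had the fewest reads per tile, a median of 121. Each day was also tested on its own against both virgin libraries. The test called 1 tile (0.0013%) at day 10, which was not among the 122, and 0 at day 16 and day 19. At an unadjusted p under 0.05 there were 8534 tiles (11.1%) at day 10, 6036 (7.83%) at day 16 and 4585 (5.95%) at day 19, of which 4960, 3957 and 3437 were lower. The day 10 call ended with either virgin library alone and after thinning. At the 94 falling tiles, chosen on the mean of the days, the median difference was -29.6, -31.4 and -27.4 points, and at the 28 rising tiles 25.8, 27.7 and 24.0 points.

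In middle-class tiles, libraries of the same state were closer to each other than to those of the other state. The median absolute difference over middle-class tiles was 6.63 points between day 10 and day 16, 6.92 points between day 10 and day 19 and 7.52 points between day 16 and day 19. Between week 3 and week 9 it was 6.02 points. Pairs of a pregnant and a virgin library differed by 7.57 points (day 19 and week 3) to 10.2 points (day 16 and week 9), all above the pairs within a state. A difference of 20 points or more was found at 7.28 to 9.93% of tiles within pregnancy and at 6.69% between the virgin libraries, but at 13.0 to 24.7% across states. This order did not hold in the other classes. Over 80%, day 16 and day 19 differed by 3.28 points and day 10 and week 3 by 2.60 points, and under 20%, week 3 and week 9 differed by 0.413 points and day 19 and week 3 by 0.393 points. The pairs were not compared at equal depth.

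Agreement of the days was described with pairs of differences that share no library, 1 day minus week 3 set against another day minus week 9. Across all tiles Pearson's r of the 6 such pairs was 0.369 to 0.531 in stem cells, against -0.266 to 0.0287 in progenitor and -0.426 to 0.279 in mature cells. Over middle-class tiles alone it was 0.437 to 0.598 in stem cells, -0.356 to 0.0270 in progenitor cells and -0.485 to 0.347 in mature cells. Tiles are not independent replicates, and each library enters more than 1 pair, so no p is given. Of the stem tiles lower by 20 points in the first difference, 42.9 to 61.5% were also lower by 20 points in the second, where 3.93 to 5.13% of all tiles were. Taken from the second difference, 33.3 to 53.2% were so in the first. For tiles higher by 20 points the shares were 20.8 to 47.5%, where 1.53 to 2.03% of all tiles were, and 15.7 to 27.1% from the second difference. In progenitor cells the shares of falls found again were 0.485 to 8.77%, where 0.306 to 1.25% of all tiles were lower, and 0.628 to 7.20% from the second difference. In mature cells they were 0.676 to 20.1%, where 0.502 to 1.96% of all tiles were lower, and 0.860 to 34.3% from the second difference, which reaches into the range of stem cells.

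**Figure D5:**
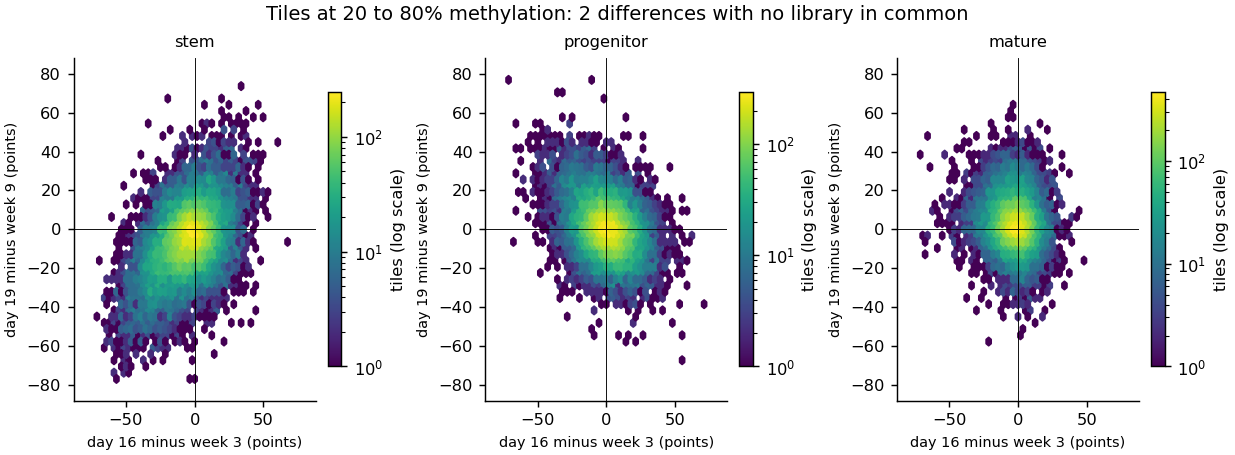
Difference at day 19 minus week 9 (percentage points, vertical axis) against the difference at day 16 minus week 3 (horizontal axis) over middle-class tiles, in stem, progenitor and mature cells, with colour for the number of tiles on a log scale. The stem panel has a cloud along the rising diagonal with r of 0.454, and the progenitor and mature panels have r of -0.330 and -0.104.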

How the data were processed

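DNA methylation was measured by multiplexed reduced representation bisulfite sequencing after MspI digestion, per the labels' protocols. The authors deposited 1 file per library without a header, with 1 CpG per line and its methylated over total read counts in column 4, and the submitters' processing notes name genome build mm9. In 11 of the files the lines have 4 columns, and in the other 7, day 19 stem among the stem libraries used, they have 6, with a deposited score that was not used. For the aligner, the methylation caller and duplicate handling: not given in the sources used here.

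The 711980 of 1485193 CpGs that reached 5 reads in each of the 18 libraries were summed in tiles of 1000 bp with at least 3 CpGs (77064 tiles, median 208 reads per tile and library). Groups of cell type and state, 9 in all, were fitted per tile by quasi-binomial logistic regression with moderated dispersion of at least 1 (9 residual and 3.103 prior degrees of freedom), and an F test, with p-values adjusted by Benjamini-Hochberg across tiles. Each pregnancy day was fitted as its own group (11 groups). A call needed an adjusted p under 0.05 and 10 percentage points. Mean levels were compared by two-sided exact permutation of libraries. The permutation of stages for cell types together was added after seeing the data.

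RefSeq promoter sequences (32851, GRCm38.p6) were placed by CpG spacing: 7363 had at least 8 matched CpGs, of which 99.51% shared their shift with a neighbour, and 2914 had at least 4 at a neighbour's shift. No coordinate was converted, and no start was placed on chromosome 18. Windows of 1000 bp on either side of a start were tested likewise.

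Named tiles were the 10 largest called falls and rises whose groups did not overlap, called tiles at placed starts, and runs of called tiles within 10 kb. Named windows were the 10 with the smallest p and up to 4 per gene list by size. The members, gene lists and tests were chosen with earlier results of these data known. Alternatives were 10 reads per CpG, tiles of 500 bp, 20 points, removal of CpGs over the 99th percentile of reads, autosomes, other fits, limma on log2((methylated + 1)/(unmethylated + 1)), thinning, and leaving out each library. The test was tried on simulated counts. Software was limma 3.58.1 on R 4.3.3 and, on Python 3.11.15, matplotlib 3.10.9, pandas 2.3.3, scipy 1.17.1 and numpy 2.4.6.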

Additional observations from a re-analysis of the deposited data

Results flagged for a closer look

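In 2 classes of tiles the mean levels of stem and progenitor libraries differed in opposite directions. In tiles at 20 to 80% the pregnant minus virgin difference was -4.26 points in stem cells and 1.06 points in progenitor cells, and the stem effect minus the progenitor effect was -5.33 points. The exact permutation p was 0.1 with the shared stages permuted together, the smallest possible, and 0.01 with separate splits of each cell type (adjusted p = 0.03). In tiles under 20% the effects were -0.798 points in stem and 0.227 points in progenitor cells, a difference of -1.02 points, with the same p-values. The progenitor effect alone had an exact permutation p of 0.3. The median tile there was lower in both cell types, by -0.102 points in stem and -0.0407 points in progenitor cells. Tiles below 0 made up 60.1% in stem and 54.1% in progenitor cells. With reads pooled over the tiles under 20% the stem effect was 0.00372 points, so its direction was not kept. In both classes all pregnant stem libraries lay below the virgin stem libraries, and all pregnant progenitor libraries lay above the virgin progenitor libraries.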

How the results depend on the processing

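The count of 122 called tiles was 33 with 10 reads per CpG, 0 in tiles of 500 bp, 0 with CpGs and fit from the stem libraries alone, 0 with the stem fit on the same tiles, 0 with limma, 0 after thinning, 0 to 693 without single libraries, and 381 with the prior spread from tiles whose replicates differ (281 lower, 100 higher). It was 96 at 20 points, 109 without the most deeply read CpGs and 128 on the autosomes. The limma, thinned and stem-only fits had 8670, 9282 and 9281 tiles at an unadjusted p under 0.05. The 0 called promoter windows became 2 with limma and 0 to 6 without single libraries. The day 10 count was 0 with week 3 alone, with week 9 alone and after thinning. Under 20% the stem difference was 0.00372 points with pooled reads, and in tiles with 50 or more CpGs it was 0.143 points at 10 reads per CpG. Promoter windows that turned sign were Cdk10 (0.216 points) and Bmi1 (0.00575 points) at 10 reads per CpG and Lfng (0.0428 points) within 500 bp. At 20 to 80% the stem difference stayed between -5.31 and -3.76 points. Otherwise the differences of the level classes kept their direction, and whether the other level classes kept their size was not compared. Those of the other density, chromosome and distance classes moved by less than the larger SD of the pregnant and virgin libraries. The causes were not tested. Thinning left the 5 libraries at or below the target as they were, and 5 reads in all 18 libraries were needed, so the shallowest libraries limit which CpGs were measured. No paired analysis was possible because the libraries carry no replicate number or animal shared between pregnant and virgin groups.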

Other observations

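The retired breeder stem library, which entered no comparison here, averaged 34.4% in the 94 falling tiles and 64.6% in the 28 rising tiles. At those tiles pregnant stem libraries averaged 27.0% and 69.2%, and virgin stem libraries 57.6% and 42.3%. It was 1 library without a replicate, and the tiles were chosen on the pregnant and virgin stem levels. At the tile upstream of Rara it had 48.8%, and at the 2 neighbouring tiles downstream of the Dbn1 start 9.01% and 0%.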
